A study of Mus musculus with 18 samples.

Results

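Axon guidance genes were followed in cultured mouse tendon fibroblasts exposed to T cell products. The 63 genes described here are every row of a table of 14391 genes whose name marks it as a semaphorin, plexin, neuropilin, ephrin, Eph receptor, Slit, Robo, netrin or Unc5 gene (a rule that reads names alone, though it was set with earlier results of these data known). They comprise 7 secreted and 12 membrane-bound semaphorins, 2 neuropilins, 9 plexins, 8 ephrins, 11 Eph receptors, 3 Slits, 4 Robo receptors, 3 netrins and 4 Unc5 receptors. RNA came from 18 libraries in 6 groups of 3, all wild type. Neonatal tendon cells received supernatant of stimulated neonatal T cells, supernatant of stimulated adult T cells, or T cell medium alone (media), in each case mixed with complete culture medium. Adult tendon cells received the same 3 fluids. Each starting well pooled the cells of 3 neonatal or 4 adult tendons, which were passaged and frozen before being thawed and cultured for 3 days, so these are expanded cells and not fresh tissue. The sources used here do not give mouse strain, exact ages or duration of treatment, or whether the 3 libraries within each group trace to separate animals. The p-values therefore measure the spread between these libraries, which may be technical.

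Guidance molecules steer growing axons and also act between many other cells. Secreted class 3 semaphorins bind neuropilins, which signal through A-type plexins, while Sema3e binds Plxnd1 directly and many membrane semaphorins bind plexins of the B, C or D type or integrins. Ephrins are membrane-bound ligands of Eph receptor tyrosine kinases and signal on cell contact, in both directions. Slits bind Robo receptors, and netrins bind Unc5 receptors or DCC. In connective tissue these systems are known for roles in cell sorting, migration, vessel growth and innervation.

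Levels are in CPM (read counts scaled to a common library total), and changes are log2 fold changes ± standard error from limma on all 18 libraries, called at an adjusted p under 0.05 over all 14391 genes. Depth was estimated from the spacing of low values, after the lowest value of 0.127 CPM was subtracted, at 12.7 to 17.8 M reads per library. At that depth 3 reads equal 0.169 to 0.237 CPM, to which the lowest value is added in the levels printed here. The estimate is weak throughout and weakest in 3 libraries. Only 7.7% to 15.7% of low values lay on whole reads, against 6.9% to 11.6% at the next best depth. Tendon fibroblast markers were abundant in sum in every library, with 10 of 10 measured and a summed level of 24000 to 27000, 13900 to 14700 and 30600 to 33700 CPM in neonatal cells with neonatal supernatant, adult supernatant and media. In adult cells the sums were 25900 to 34400, 12300 to 14300 and 32900 to 36200 CPM in the same order of fluids. Much of each sum was Col1a1, at a mean of 20700 and 19600 CPM in neonatal and adult cells in media. The tenocyte marker Scx averaged 353 CPM in neonatal and 15.9 CPM in adult cells in media, and 132 and 3.47 CPM with adult supernatant. With that supernatant 7 of the 10 fell at each age, while 2 rose in neonatal and 1 in adult cells. Dcn averaged 283 and 292 CPM, against 61.8 and 167 CPM in media. Mural cell markers moved the same way: 5 of 6 fell with adult supernatant in cells of either age. Of 8 T cell markers listed, Cd3e, Cd3g, Trac and Cd2 had no values here. Of the 4 measured, 2 rose in neonatal cells and 3 in adult cells with adult supernatant. Their sum was then 10.6 to 12.8 CPM in neonatal cells, against 2.44 to 4.49 CPM in media. In adult cells it was 7.97 to 26.2 CPM, against 2.06 to 3.35 CPM in media. With neonatal supernatant 2 rose in adult cells (5.34 to 8 CPM) and none in neonatal cells (3.52 to 6.47 CPM). Of 7 macrophage markers, 5 rose in neonatal and 3 in adult cells with adult supernatant, and 3 rose in each with neonatal supernatant, although 1 fell at each age with adult supernatant. Their sum with adult supernatant was 44.3 to 57.5 CPM in neonatal cells, against 37.5 to 58.5 CPM in media, and 62.3 to 71.7 CPM in adult cells, against 98.8 to 122 CPM in media. Keratinocyte markers (3 measured) summed to 8.82 to 12.5 CPM with adult supernatant in neonatal cells, against 26 to 36.7 CPM in media, and to 7.44 to 15.6 CPM in adult cells, against 30.8 to 33.8 CPM in media. Yet 2 rose and 1 fell in neonatal cells, and 1 rose and 1 fell in adult cells. Dsp set the sum, at 4.54 and 5.09 CPM in neonatal and adult cells, against 27.3 and 30.1 CPM in media. Krt10 and Cdh1 averaged higher than in media at both ages. Endothelial markers (7 measured) summed to 27.4 to 33.8 CPM with adult supernatant, against 30.7 to 37.3 CPM in media, in neonatal cells, and to 38.0 to 53.0 CPM, against 62.6 to 65.7 CPM in media, in adult cells. This list split: 3 rose and 2 fell in neonatal cells, and 1 rose and 2 fell in adult cells. In neonatal cells Pecam1 averaged 10.3 CPM, against 1.52 CPM in media, while Kdr averaged 3.84 CPM, against 14.6 CPM in media. In bulk RNA, fewer cells of a type and less RNA per cell cannot be told apart, and the part of these shifts in the results below was not tested. Over 12 interferon-induced genes, mean log2 CPM was high in 1 media library of each age: 4.01 in neonatal library 1, with 0.97 and 0.49 in the other two, and 3.71 in adult library 2, with 2.16 and 1.77 in the others. Adult cells with neonatal supernatant were also uneven, at 3.97, 4.66 and 2.26 in libraries 1 to 3.

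A set of 6 genes carries much of what follows, and the RefSeq sequence around their start sites (GRCm38.p6, 250 bases before to 50 after, on the strand of the gene) is printed here to set responses beside promoter sequence. Sema7a had the largest rise and Sema3d and Epha3 the largest falls in adult cells with adult supernatant, and Sema3c, Slit2 and Sema3e passed the test of a different response in neonatal and adult cells to adult supernatant. Capitals mark any match to 5 motifs searched on both strands: the gamma-activated sequence TTCNNNGAA, the interferon-stimulated response element (GAAA, any 2 bases, GAAA), the AP-1 site TGANTCA, the cyclic AMP response element TGACGTCA and the TATA box TATAAA.
Sema7a, chr9:57939862-57940161, plus strand: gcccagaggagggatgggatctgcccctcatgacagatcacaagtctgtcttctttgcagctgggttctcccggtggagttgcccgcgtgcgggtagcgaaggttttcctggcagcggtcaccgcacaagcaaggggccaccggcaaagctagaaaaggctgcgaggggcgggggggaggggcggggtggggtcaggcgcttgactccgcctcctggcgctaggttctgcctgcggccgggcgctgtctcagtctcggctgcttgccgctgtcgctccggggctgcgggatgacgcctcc
Sema3c, chr5:17574566-17574865, plus strand: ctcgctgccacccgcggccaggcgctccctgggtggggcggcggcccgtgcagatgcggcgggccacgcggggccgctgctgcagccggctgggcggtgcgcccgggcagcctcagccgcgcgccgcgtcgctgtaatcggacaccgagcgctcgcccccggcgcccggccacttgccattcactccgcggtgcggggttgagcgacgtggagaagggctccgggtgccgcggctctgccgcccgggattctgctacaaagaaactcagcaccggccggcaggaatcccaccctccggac
Sema3d, chr5:12382916-12383215, plus strand: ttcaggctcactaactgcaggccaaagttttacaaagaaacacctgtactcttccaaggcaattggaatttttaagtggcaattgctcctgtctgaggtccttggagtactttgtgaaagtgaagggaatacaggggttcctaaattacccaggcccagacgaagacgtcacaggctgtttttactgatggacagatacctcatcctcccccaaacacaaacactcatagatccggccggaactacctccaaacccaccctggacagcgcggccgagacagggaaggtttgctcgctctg
Sema3e, chr5:14025026-14025325, plus strand: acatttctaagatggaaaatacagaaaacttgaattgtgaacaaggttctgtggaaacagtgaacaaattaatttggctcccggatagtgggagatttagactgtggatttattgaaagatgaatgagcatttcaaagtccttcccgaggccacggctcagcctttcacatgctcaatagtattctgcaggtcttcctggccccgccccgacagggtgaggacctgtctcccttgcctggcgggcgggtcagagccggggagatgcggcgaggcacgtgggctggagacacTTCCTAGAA
Slit2, chr5:47982905-47983204, plus strand: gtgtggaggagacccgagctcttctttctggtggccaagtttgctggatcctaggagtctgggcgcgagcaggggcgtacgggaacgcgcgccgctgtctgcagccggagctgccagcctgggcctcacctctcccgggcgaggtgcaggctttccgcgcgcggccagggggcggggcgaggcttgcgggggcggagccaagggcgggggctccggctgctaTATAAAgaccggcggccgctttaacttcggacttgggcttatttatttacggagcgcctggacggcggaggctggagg
Epha3, chr16:63864126-63864425, minus strand: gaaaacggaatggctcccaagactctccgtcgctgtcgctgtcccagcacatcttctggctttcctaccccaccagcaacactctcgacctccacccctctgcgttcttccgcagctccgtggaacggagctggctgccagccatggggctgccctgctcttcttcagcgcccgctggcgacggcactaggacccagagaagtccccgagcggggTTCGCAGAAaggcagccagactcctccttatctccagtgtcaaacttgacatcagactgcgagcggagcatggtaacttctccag

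The capitals in Sema3e, 42 bases after the start site, and in Epha3, 35 bases before it, are gamma-activated sequences, and those in Slit2, 28 bases before it, are a TATA box. No window of the 6 held the other 3 motifs, and Sema7a, Sema3c and Sema3d held none of the 5. A gamma-activated sequence stood in 3 of the 70 windows of the 54 genes with a match in the RefSeq table (4.29%), and in 8.3% of all 32851 windows. The third was in Efna3. For the TATA box the shares were 2.86% and 13.6%, for the interferon element 2.86% and 3.44%, for AP-1 4.29% and 7.81%, and for the cyclic AMP element 1.43% and 1.79%. Base composition differed widely among class 3 semaphorins: the Sema3c window was 75.7% G and C with 42 CpG, the Sema3d window 49.7% with 8, against medians of 52.7% and 7 over all windows. Sema3a, Sema3c, Sema3d and Sema3e start within 5.19 Mb of each other on chromosome 5. A motif match is a description of these letters and not of binding.

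In media, the guidance genes with the highest level per kilobase of exon were ligands as well as receptors. Per kilobase, Slit3 stood at 40.5 ± 4.35 CPM in neonatal cells and 98.5 ± 10.5 CPM in adult cells (mean ± SD, n = 3). Plxnb2, a receptor of class 4 semaphorins, stood at 84.4 ± 4.51 and 93.0 ± 3.16 CPM per kilobase in neonatal and adult cells. Sema3c followed in adult cells with 83.3 ± 17.4, against 33.5 ± 4.05 CPM per kilobase in neonatal cells, where Plxna1 (61.4 ± 5.24) and Unc5b (57.7 ± 10.5) came next after Plxnb2. Plxna1 and Unc5b had 76.9 ± 5.17 and 53.1 ± 8.99 CPM per kilobase in adult cells. Efnb1 had 43.1 ± 1.88 and 43.5 ± 4.26 CPM per kilobase in neonatal and adult cells. The SD ranges of Slit3, Plxnb2 and Sema3c met in adult cells, so their order there is not resolved. Exon lengths came from GENCODE on GRCm38, another build than that of the counts. Over all libraries, 47 of the 63 genes averaged at least 5 CPM and 3 averaged under 1 CPM.

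Most guidance genes changed with adult T cell supernatant. In neonatal cells 36 of 63 passed the threshold, 19 higher and 17 lower, where 47.8% of all genes were called (28.3% higher and 19.5% lower). Quantile normalization, which shifts the median of all genes by -0.18 here, gave 15 higher and 23 lower. Leaving out library 3 of neonatal cells in media gave 22 higher and 13 lower, so the balance of directions depends on these choices. In adult cells 46 of 63 passed, 16 higher and 30 lower, where 52% of all genes were called (28.2% higher and 23.9% lower). Falls thus took 47.6% of the guidance genes in adult cells, against 23.9% of all genes, and 27% in neonatal cells. The median change of the 63 genes was -0.01 in neonatal cells and -0.14 in adult cells, against 0.07 and 0.03 over all genes. Called genes changed at least 2-fold numbered 12 higher and 8 lower in neonatal cells and 8 higher and 21 lower in adult cells. The share of all genes changed by that much was not counted, so these numbers have no background to be judged by.

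Neonatal T cell supernatant changed fewer. In neonatal cells 22 of 63 passed, 7 higher and 15 lower, where 18.3% of all genes were called (10.7% higher and 7.62% lower), and without library 1 of the neonatal-supernatant group the count was 14. In adult cells 25 of 63 passed, 8 higher and 17 lower, where 27.3% of all genes were called (16.1% higher and 11.2% lower). The medians were -0.09 in neonatal cells and -0.24 in adult cells, against 0.04 and 0.03 over all genes. Without the pair of media libraries of high interferon level, the counts were 31 and 41 with adult supernatant in neonatal and adult cells, and 21 and 25 with neonatal supernatant. Each supernatant comparison within an age uses the same 3 media libraries, so these counts are not independent of each other.

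**Figure D1:**
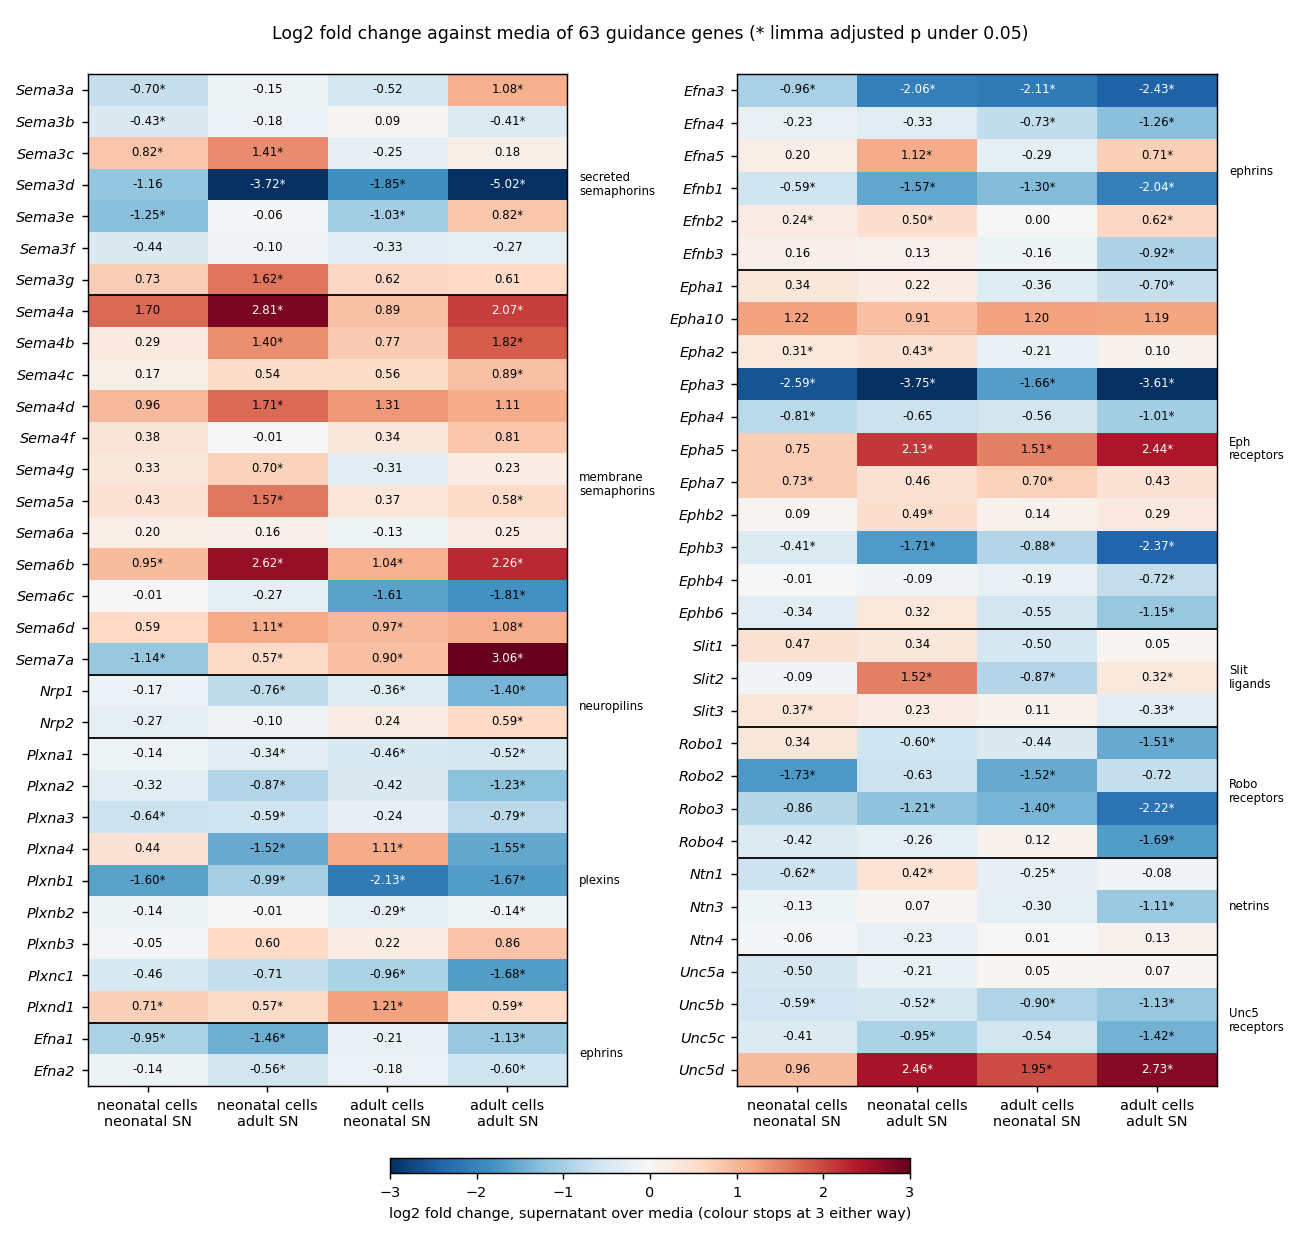
Log2 fold change of each of the 63 genes (rows, by role) against media in 4 comparisons (columns; SN, supernatant), with red for higher, blue for lower and an asterisk at a limma adjusted p under 0.05. Efna3, Efnb1, Epha3, Ephb3, Plxnb1 and Unc5b are blue with an asterisk in all 4 columns, Plxnd1 and Sema6b are red in all 4, and Sema7a is red in 3 and blue in the first. Columns of the same cell age share their media libraries.

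Of the 7 secreted semaphorins, 2 rose and 1 fell in neonatal cells and 2 rose and 2 fell in adult cells with adult supernatant, and 1 rose and 3 fell in neonatal cells and 2 fell in adult cells with neonatal supernatant. The shares called, 3 and 4 of 7 with adult supernatant, lie near those of all genes (47.8% and 52%). With neonatal supernatant 57.1% were called in neonatal cells and 28.6% in adult cells, against 18.3% and 27.3% of all genes. Of those 4 neonatal-cell calls, the ones of Sema3c and Sema3e passed under every setting run. With adult supernatant, the neonatal-cell rises were those of Sema3c and Sema3g. Sema3g, a class 3 ligand of low level here, had 1.85, 1.71 and 2.30 CPM with adult supernatant, against 0.371, 0.414 and 1.64 CPM in media (1.62 ± 0.58, adjusted p = 0.0305). The Sema3g call was lost under quantile normalization (0.42, adjusted p = 0.53) and without any 1 of 5 of the 6 libraries (adjusted p = 0.0526 to 0.135), which leaves Sema3c alone. Sema3d, a class 3 ligand that repels endothelial and neural crest cells, showed the largest fall of all 63 genes, in adult cells with adult supernatant. It had 6.95, 8.45 and 15.8 CPM with neonatal supernatant and 1.75, 1.10 and 2.36 CPM with adult supernatant in neonatal cells, against 26.4, 24.2 and 16.4 CPM in media. In adult cells Sema3d had 12.3, 18.4 and 15.1 CPM with neonatal and 0.709, 2.48 and 2.65 CPM with adult supernatant, against 50.3, 64.8 and 49.3 CPM in media. No supernatant library of either age reached the lowest media library of that age. The falls with adult supernatant were -3.72 ± 0.42 in neonatal cells (adjusted p = 1.7e-06) and -5.02 ± 0.42 in adult cells (adjusted p = 3.5e-08). With neonatal supernatant the change was -1.16 (95% confidence interval -2.06 to -0.27, adjusted p = 0.068) in neonatal cells and -1.85 ± 0.42 (adjusted p = 0.0036) in adult cells.

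Sema3c, a class 3 ligand of neuropilins needed for outflow tract formation in the heart, rose in neonatal cells with either supernatant. It had 404, 459 and 406 CPM with neonatal and 618, 653 and 633 CPM with adult supernatant in neonatal cells, against 267, 242 and 209 CPM in media. The rises were 0.82 ± 0.11 (adjusted p = 4.3e-05) and 1.41 ± 0.11 (adjusted p = 1.7e-08), and the groups did not overlap. In adult cells, which already had 559, 733 and 492 CPM in media, the level was 481, 512 and 484 CPM with neonatal and 639, 660 and 702 CPM with adult supernatant. Those changes, -0.25 (95% confidence interval -0.49 to -0.02) and 0.18 (-0.05 to 0.42), did not pass the threshold. With adult supernatant the neonatal-cell libraries thus lay within the range of adult cells in media.

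Sema3a, the classic repellent of sensory and sympathetic axons, rose in adult cells with adult supernatant to 60.8, 38.1 and 70.8 CPM, against 25.8, 25.4 and 26.7 CPM in media (1.08 ± 0.20, adjusted p = 0.00029). In neonatal cells Sema3a had 52.2, 39.1 and 48.1 CPM with neonatal and 65.3, 75.4 and 62.8 CPM with adult supernatant, against 58.4, 89.2 and 80.5 CPM in media. The fall with neonatal supernatant was -0.70 ± 0.20 (adjusted p = 0.024), and did not pass without library 2 of that group (-0.58, adjusted p = 0.11) or without media library 2 or 3 (-0.57 and -0.65). Sema3e, the ligand of Plxnd1, fell with neonatal supernatant in cells of both ages. In neonatal cells Sema3e had 11.3, 9.42 and 9.26 CPM with neonatal supernatant, against 21.6, 21.8 and 28.0 CPM in media (-1.25 ± 0.13, adjusted p = 4e-06). In adult cells Sema3e had 6.81, 6.56 and 7.92 CPM with neonatal and 25.1, 23.8 and 27.7 CPM with adult supernatant, against 16.7, 13.6 and 13.4 CPM in media. In adult cells Sema3e therefore fell with one supernatant (-1.03 ± 0.13, adjusted p = 2.2e-05) and rose with the other (0.82 ± 0.13, adjusted p = 7.6e-05), with no overlap between the 3 groups. Plxnd1 rose with neonatal supernatant, a call lost under some settings in neonatal cells and kept under every setting run in adult cells. It had 90.6, 117 and 103 CPM, against 55.4, 50.6 and 89.3 CPM in media, in neonatal cells (0.71, adjusted p = 0.0051), and 136, 124 and 156 CPM, against 58.1, 60.3 and 60.4 CPM in media, in adult cells (1.21 ± 0.16, adjusted p = 2.8e-05).

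**Figure D2:**
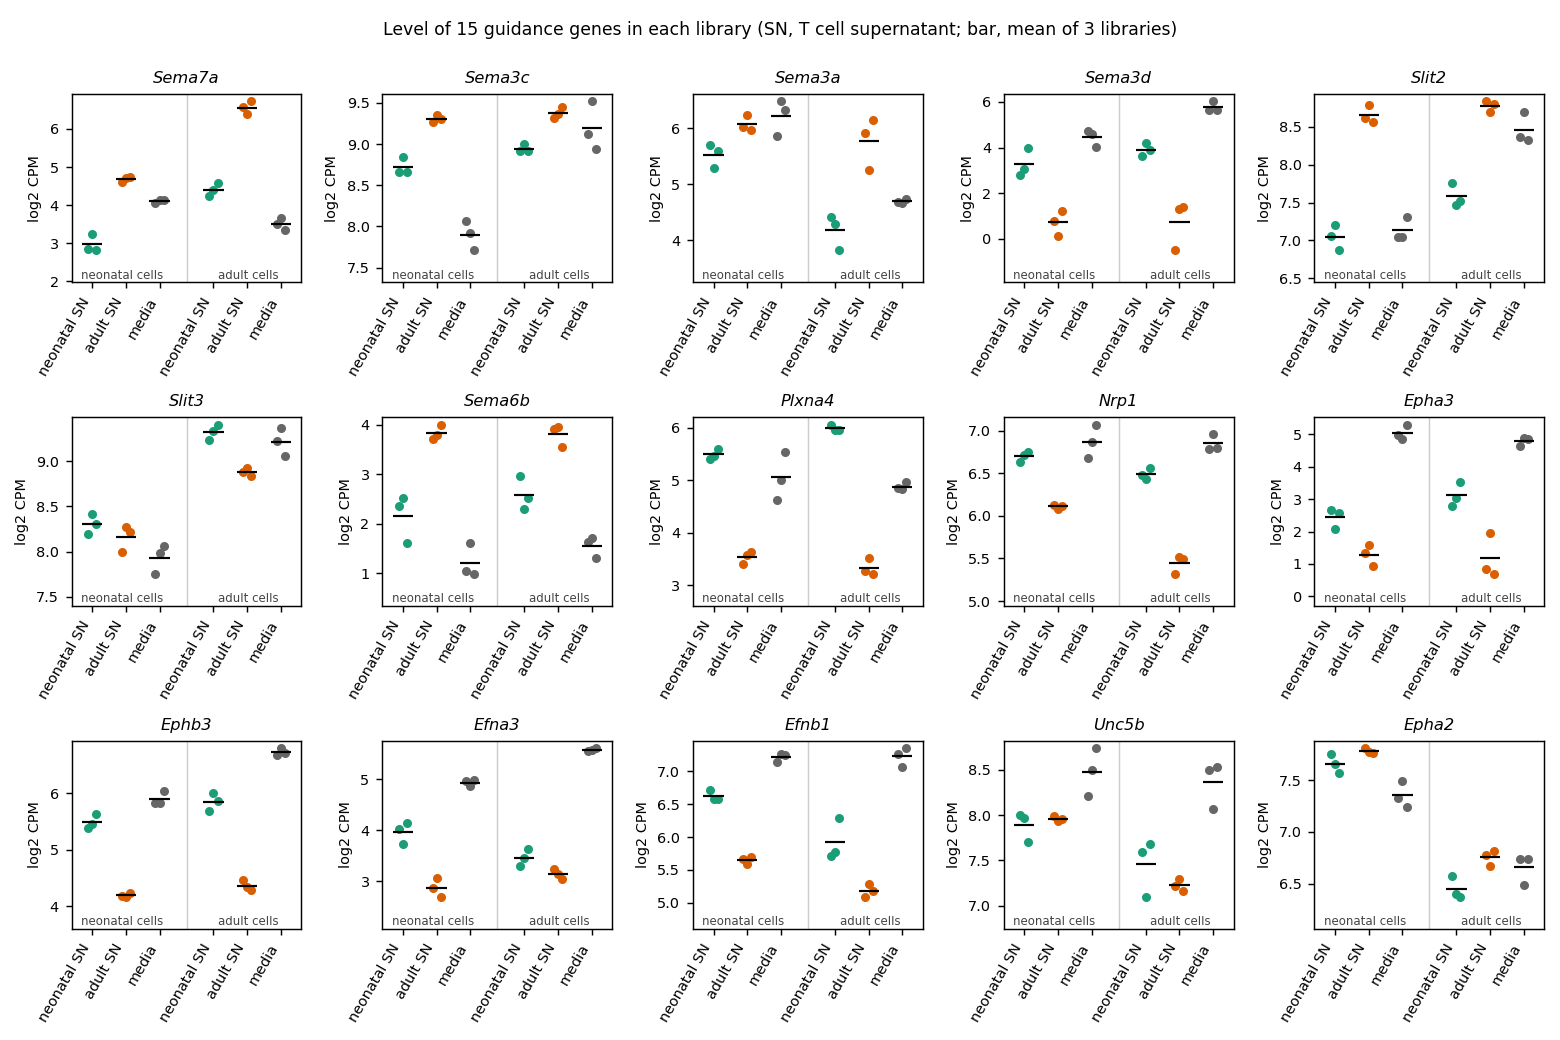
Level in log2 CPM (vertical axes, each with its own range) of 15 guidance genes in each of the 18 libraries; dots are libraries, coloured by fluid, bars are means of 3, and SN is T cell supernatant. Sema7a is highest in adult cells with adult supernatant (83.4 to 106 CPM), and in neonatal cells Sema3c lies within the range of adult cells in media with adult supernatant but not with neonatal supernatant or media.

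Of 12 membrane-bound semaphorins, 8 rose and none fell in neonatal cells with adult supernatant, where 28.3% of all genes rose, and 7 rose and 1 fell in adult cells, where 28.2% rose. The rises of 5 at each age passed under every setting and left-out library in which they were tested, those of Sema6b, Sema6d and Sema7a at both ages, Sema4a and Sema5a in neonatal cells and Sema4b and Sema4c in adult cells. In neonatal cells Sema4b, Sema4d and Sema4g were not called under quantile normalization (1.00, 1.10 and 0.35), nor was Sema4a in adult cells (1.24). Over all libraries 3 of the 12 (Sema4a, Sema4d and Sema6c) averaged under 5 CPM, a range in which 39.9% and 38.4% of all genes rose with adult supernatant in neonatal and adult cells. Sema7a, a membrane-anchored semaphorin that binds integrins and Plxnc1 and is known from T cell and macrophage activation, changed most in adult cells. In adult cells Sema7a had 18.7, 21.0 and 23.9 CPM with neonatal and 95.3, 83.4 and 106 CPM with adult supernatant, against 11.4, 12.5 and 10.2 CPM in media. Adult supernatant raised it 8.32-fold (3.06 ± 0.13, adjusted p = 8.5e-12) and neonatal supernatant 1.86-fold (0.90 ± 0.13, adjusted p = 6.4e-05). In neonatal cells Sema7a had 7.23, 9.48 and 7.01 CPM with neonatal and 24.6, 26.0 and 26.5 CPM with adult supernatant, against 16.7, 17.6 and 17.6 CPM in media. There it rose only 1.48-fold with adult supernatant (0.57 ± 0.13, adjusted p = 0.0016) and fell with neonatal supernatant (-1.14 ± 0.13, adjusted p = 6.9e-06). Its receptor Plxnc1 fell in adult cells with adult supernatant, to 2.96, 3.94 and 4.87 CPM, against 12.9, 8.98 and 16.1 CPM in media (-1.68 ± 0.32, adjusted p = 0.0003).

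Sema6b, a transmembrane ligand of A-type plexins, was one of 2 guidance genes that rose in all 4 comparisons, the other being Plxnd1. Agreement over the 4 was not counted for all genes, and comparisons within an age share their media libraries. Sema6b had 5.10, 5.69 and 3.06 CPM with neonatal and 13.1, 13.8 and 16.0 CPM with adult supernatant in neonatal cells, against 2.05, 3.03 and 1.99 CPM in media. In adult cells Sema6b had 7.78, 4.89 and 5.70 CPM with neonatal and 15.0, 15.5 and 11.6 CPM with adult supernatant, against 3.08, 3.29 and 2.46 CPM in media. The rises were 2.62 ± 0.25 and 2.26 ± 0.25 with adult supernatant in neonatal and adult cells, and 0.95 ± 0.25 and 1.04 ± 0.25 with neonatal supernatant. The neonatal-cell call with neonatal supernatant (adjusted p = 0.014) was lost without any 1 of libraries 1 and 2 of that group or of libraries 1 and 3 of its media (0.77 to 0.86). Similarly, Plxnd1 in neonatal cells with adult supernatant (0.57 ± 0.16) was not called without media library 2 (0.41, adjusted p = 0.055). Its neonatal-cell call with neonatal supernatant was also lost under some settings.

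Sema4c, a ligand of Plxnb2, rose in adult cells with adult supernatant to 35.2, 32 and 28.2 CPM, against 15.5, 18.5 and 17.6 CPM in media (0.89 ± 0.24, adjusted p = 0.0054). Sema5a, a class 5 semaphorin with both attractive and repulsive action, rose in neonatal cells with adult supernatant to 17.4, 20.0 and 18.4 CPM, against 7.49, 5.61 and 5.77 CPM in media (1.57 ± 0.20, adjusted p = 5e-06). In adult cells Sema5a had 11.4, 10.9 and 7.34 CPM, against 7.16, 7.13 and 5.35 CPM in media, and that call (0.58, adjusted p = 0.02) was lost without library 1 or 2 of the supernatant group or media library 3 (0.46, 0.50 and 0.44). Sema4b rose to 8.06, 6.09 and 8.14 CPM in neonatal cells, against 1.47, 4.92 and 3.01 CPM in media, and to 11, 11.7 and 13.6 CPM in adult cells, against 4.26, 7.04 and 1.33 CPM in media. Its neonatal-cell call (1.40, adjusted p = 0.026) was lost without media library 1 (0.94, adjusted p = 0.15) or without library 1 or 3 of the supernatant group (1.34 and 1.33), and in adult cells the rise of 1.82 was 1.14 without media library 3. Sema4d, which binds Plxnb1, rose in neonatal cells to 5.21, 4.41 and 5.43 CPM, against 2.21, 1.02 and 1.58 CPM in media (1.71 ± 0.49), but not under quantile normalization (1.10, adjusted p = 0.054). Sema6d rose 1.11 ± 0.26 and 1.08 ± 0.26 in neonatal and adult cells. Sema6c alone fell, in adult cells, to 3.11, 1.09 and 4.44 CPM, against 11.4, 8.69 and 6.55 CPM in media (-1.81 ± 0.61, adjusted p = 0.02). Without library 2 of the adult-supernatant group its change was -1.22 (adjusted p = 0.12), and without media library 1 it was -1.61 (adjusted p = 0.07).

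Plexin receptors mostly fell with adult supernatant: 5 of 9 were lower and 1 higher in neonatal cells, and 7 lower and 1 higher in adult cells, the exception being Plxnd1 both times. Of all genes, 19.5% and 23.9% were lower in neonatal and adult cells. The falls of 3 plexins in neonatal cells (Plxna1, Plxna2 and Plxna4) and of 6 in adult cells passed under every setting run. In adult cells Plxnb2 changed by only -0.14, a call lost without the trend, with only the compared groups in the fit and without any 1 of 3 libraries (-0.10 to -0.14). Plxna4, a co-receptor of Sema3a and receptor of class 6 semaphorins, moved in opposite directions with the supernatants in adult cells. In neonatal cells Plxna4 had 42.7, 44.4 and 48.5 CPM with neonatal and 10.6, 11.9 and 12.4 CPM with adult supernatant, against 24.7, 32.2 and 46.7 CPM in media. In adult cells Plxna4 had 66.8, 62.0 and 62.2 CPM with neonatal and 9.69, 11.4 and 9.32 CPM with adult supernatant, against 29.0, 28.4 and 31.1 CPM in media. The falls with adult supernatant were -1.52 ± 0.16 and -1.55 ± 0.16 in neonatal and adult cells. With neonatal supernatant it rose in adult cells (1.11 ± 0.16, adjusted p = 6.4e-05), while in neonatal cells the change of 0.44 (95% confidence interval 0.10 to 0.78, adjusted p = 0.07) did not pass. Plxnb1, the receptor of Sema4d, fell in all 4 comparisons, most in adult cells with neonatal supernatant, to 1.72, 2.02 and 3.36 CPM, against 7.98, 13.1 and 9.40 CPM in media (-2.13 ± 0.39, adjusted p = 0.00054). Its call in neonatal cells with adult supernatant (-0.99, adjusted p = 0.043) was lost when any 1 library was left out (-0.77 to -1.12). Plxna1, one of the most abundant members, fell modestly in 3 comparisons, by 0.34, 0.46 and 0.52 on the log2 scale in neonatal cells with adult supernatant and in adult cells with neonatal and with adult supernatant.

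The neuropilins parted in adult cells. Nrp1, the receptor shared by Sema3a and VEGF, fell with adult supernatant to 70.0, 67.9 and 69.5 CPM in neonatal cells, against 102, 117 and 134 CPM in media (-0.76 ± 0.09, adjusted p = 1.4e-06). In adult cells Nrp1 fell to 40.0, 45.8 and 45.1 CPM, against 110, 125 and 111 CPM in media (-1.40 ± 0.09, adjusted p = 5.8e-10). Nrp2, which favours Sema3c, Sema3f and VEGF-C, rose in adult cells to 311, 323 and 323 CPM, against 221, 197 and 219 CPM in media (0.59 ± 0.09, adjusted p = 4.9e-05). In neonatal cells Nrp2 had 191, 205 and 193 CPM, against 183, 206 and 251 CPM in media, a change of -0.10 (95% confidence interval -0.30 to 0.09).

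Ephrins fell more than they rose with adult supernatant. In adult cells all 8 measured ephrins passed, 6 lower and 2 higher, where 23.9% of all genes were lower and 28.2% higher, and in neonatal cells 4 were lower and 2 higher, where 19.5% and 28.3% were. The adult-cell calls of Efna2 (-0.60) and Efnb3 (-0.92) were both lost with only the compared groups in the fit, and leaving out any 1 of the 6 libraries ended 1 of them (-0.53 to -0.60 for Efna2 and -0.75 to -0.78 for Efnb3). Efna2 was also lost in neonatal cells (-0.56) without any 1 of 4 libraries (-0.46 to -0.59). The other 6 ephrins in adult cells and 5 in neonatal cells passed under every setting run. Efnb1, a transmembrane ephrin whose loss causes craniofacial and limb defects, was the most abundant ephrin per kilobase in media. It had 105, 95.8 and 95.1 CPM with neonatal and 50.7, 48.0 and 51.9 CPM with adult supernatant in neonatal cells, against 141, 154 and 151 CPM in media. In adult cells Efnb1 had 52.5, 54.5 and 78.5 CPM with neonatal and 34.0, 39.0 and 36.2 CPM with adult supernatant, against 153, 135 and 164 CPM in media. The order of media, then neonatal, then adult supernatant from high to low held in cells of both ages with no overlap. The falls were -0.59 ± 0.12 and -1.57 ± 0.12 in neonatal cells and -1.30 ± 0.12 and -2.04 ± 0.12 in adult cells, with neonatal and adult supernatant in that order.

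Efna3, a ligand of EphA receptors, followed the same order. In neonatal cells Efna3 had 16.3, 13.3 and 17.7 CPM with neonatal and 7.26, 8.36 and 6.48 CPM with adult supernatant, against 31.0, 29.1 and 31.6 CPM in media. In adult cells Efna3 had 9.85, 11 and 12.3 CPM with neonatal and 9.5, 8.81 and 8.28 CPM with adult supernatant, against 47.1, 47.4 and 48.8 CPM in media. In adult cells the neonatal supernatant thus lowered it nearly as far (-2.11 ± 0.13) as the adult supernatant did (-2.43 ± 0.13). Efnb2, a ligand of Ephb4 in vessels, went the other way, to 109, 122 and 118 CPM with adult supernatant in neonatal cells, against 83.9, 83.4 and 79.2 CPM in media, and to 107, 90.1 and 94.8 CPM in adult cells, against 67.4, 58.3 and 64.3 CPM in media. Those rises of 0.50 ± 0.07 and 0.62 ± 0.07 were accompanied by Efna5 (1.12 ± 0.11 and 0.71 ± 0.11 in neonatal and adult cells). Efna1, a ligand of Epha2 induced in many cells by inflammatory cytokines, fell here: it had 1.50, 1.85 and 1.83 CPM with adult supernatant in neonatal cells, against 5.70, 4.23 and 4.39 CPM in media (-1.46 ± 0.29), and 1.36, 1.60 and 1.11 CPM in adult cells, against 2.34, 3.28 and 3.28 CPM in media (-1.13 ± 0.29).

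Among Eph receptors, Epha3 and Ephb3 fell in all 4 comparisons. Epha3, a receptor of A-type ephrins found in mesenchymal cells, had 6.38, 4.19 and 6.00 CPM with neonatal and 2.52, 2.98 and 1.91 CPM with adult supernatant in neonatal cells, against 31.2, 28.6 and 39.2 CPM in media. In adult cells Epha3 had 6.86, 8.25 and 11.6 CPM with neonatal and 1.81, 3.87 and 1.63 CPM with adult supernatant, against 24.6, 29.7 and 28.6 CPM in media. Adult supernatant lowered it 13.5-fold in neonatal cells (adjusted p = 1.6e-08) and 12.2-fold in adult cells (adjusted p = 1.9e-08), and neonatal supernatant 6.03-fold and 3.17-fold. Ephb3, a receptor of B-type ephrins, had 18.2, 17.9 and 18.8 CPM with adult supernatant in neonatal cells, against 57.1, 57.2 and 65.7 CPM in media (-1.71 ± 0.09). In adult cells Ephb3 had 22, 20.3 and 19.5 CPM, against 103, 112 and 105 CPM in media (-2.37 ± 0.09, adjusted p = 3.4e-12), the smallest p among the 63 genes. From different media levels, the cells of both ages came to nearly the same level with adult supernatant.

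Epha5, an EphA receptor known mainly from brain, rose with adult supernatant to 19.0, 15.3 and 17.0 CPM in neonatal cells, against 4.13, 3.52 and 4.09 CPM in media (2.13 ± 0.28), and to 13.3, 28.8 and 11.3 CPM in adult cells, against 3.03, 2.60 and 3.45 CPM in media (2.44 ± 0.28). Unc5d, a netrin receptor also known from brain, had 6.40, 4.73 and 6.93 CPM in neonatal cells, against 0.877, 1.39 and 1.03 CPM in media (2.46 ± 0.38), and 6.12, 11.3 and 3.18 CPM in adult cells, against 1.07, 0.993 and 0.705 CPM in media (2.73 ± 0.38). Library 2 of adult cells with adult supernatant was highest for both genes, as it was for Sema4a, Sema4d, Sema6a and Sema6d. Genes of 68 odorant and vomeronasal receptors, which fibroblasts are not known to use, were also higher in sum with adult supernatant, at 315 to 425 CPM, against 34.4 to 40.5 CPM in media, in neonatal cells and 289 to 721 CPM, against 44.5 to 49.2 CPM in media, in adult cells. Among all 3808 genes averaging under 5 CPM, 39.9% rose with adult supernatant in neonatal cells and 38.4% in adult cells, against 4 and 2 of the 16 guidance genes in that range. Their part in the rises of Epha5, Unc5d and the membrane semaphorins was not tested. Epha2, a widely expressed EphA receptor, rose slightly in neonatal cells with adult supernatant, to 225, 219 and 217 CPM, against 161, 181 and 151 CPM in media (0.43 ± 0.08, adjusted p = 0.00036). In adult cells Epha2 had 109, 102 and 113 CPM, against 107, 89.8 and 107 CPM in media, an overlap of the groups. Ephb2 rose in neonatal cells to 67.0, 65.3 and 70.5 CPM, against 43.8, 47.8 and 53.7 CPM in media (0.49 ± 0.12, adjusted p = 0.004).

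With adult supernatant, 1 of 3 Slits rose and 2 of 4 Robo receptors fell in neonatal cells. In adult cells 1 Slit rose, 1 Slit fell and 3 Robo receptors fell. Of all genes, 28.3% rose and 19.5% fell in neonatal cells, and 28.2% rose and 23.9% fell in adult cells. Of these Robo calls, none in neonatal cells and those of Robo1 and Robo3 in adult cells passed under every setting run. Robo3 in neonatal cells (-1.21) was lost without any 1 of 4 libraries (-0.87 to -1.22) and with only the compared groups in the fit. Robo4 in adult cells, at 0.127, 1.06 and 0.252 CPM with adult supernatant, against 1.23, 1.19 and 0.771 CPM in media (-1.69), was lost without any 1 of 5 libraries (-1.01 to -1.90) and with only the compared groups in the fit. Slit2 rose in neonatal cells with adult supernatant to 390, 442 and 379 CPM, against 132, 132 and 159 CPM in media (1.52 ± 0.11, adjusted p = 6.6e-09), and had 133, 148 and 117 CPM with neonatal supernatant. In adult cells Slit2 fell with neonatal supernatant to 217, 177 and 183 CPM, against 329, 412 and 320 CPM in media (-0.87 ± 0.11, adjusted p = 1.6e-05). With adult supernatant the adult cells had 456, 415 and 445 CPM, and the change of 0.32 (adjusted p = 0.022) was lost under quantile normalization (0.19) and without any 1 of 4 libraries, namely 1 and 3 of either group (0.25 to 0.31). Slit3, the most abundant Slit, rose in neonatal cells with neonatal supernatant, to 292, 340 and 317 CPM, against 216, 252 and 268 CPM in media (0.37, adjusted p = 0.0095), a call that was lost without media library 1 (0.28) or without library 2 of the supernatant group (0.32). In adult cells with adult supernatant it fell to 473, 487 and 459 CPM, against 597, 662 and 534 CPM in media (-0.33, adjusted p = 0.0061). Robo1, the Robo of the highest level here, fell in adult cells with adult supernatant to 16.3, 14.0 and 17.9 CPM, against 47.8, 44.4 and 44.7 CPM in media (-1.51 ± 0.19, adjusted p = 5.6e-06). In neonatal cells Robo1 had 19.9, 19.9 and 24.8 CPM, against 23.1, 30.7 and 48.4 CPM in media, and the groups overlapped. That call (-0.60, adjusted p = 0.017) was lost without media library 3 (-0.31, adjusted p = 0.11) and without library 1 or 2 of the supernatant group (-0.55 each). Robo2 fell with neonatal supernatant to 1.11, 1.63 and 1.23 CPM in neonatal cells, against 3.36, 6.36 and 3.82 CPM in media (-1.73 ± 0.48), and to 0.946, 2.07 and 1.13 CPM in adult cells, against 2.35, 7.54 and 2.96 CPM in media (-1.52 ± 0.48). Both calls were lost without media library 2 (-1.46, adjusted p = 0.084, in neonatal and -1.01, adjusted p = 0.14, in adult cells), and also without neonatal-supernatant library 1 (-1.61 and -1.29), and in adult cells library 3 (-1.42).

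Of 3 netrins, 1 rose in neonatal cells and 1 fell in adult cells with adult supernatant, and of 4 Unc5 receptors, 1 rose and 2 fell in cells of either age; of all genes, 47.8% were called in neonatal and 52% in adult cells. The netrin that fell was Ntn3, at 3.48, 2.91 and 1.43 CPM with adult supernatant, against 4, 6.27 and 5.85 CPM in media (-1.11 ± 0.38, adjusted p = 0.021). Without media library 2 or 3 or library 3 of the supernatant group (-0.99, -1.04 and -0.73, adjusted p = 0.0734, 0.0644 and 0.124), and without both media libraries of high interferon level, no netrin passed. Ntn1, the founding netrin, had 31.6, 31.2 and 33.1 CPM with neonatal and 58.7, 71.0 and 67.4 CPM with adult supernatant in neonatal cells, against 46.2, 51.2 and 49.9 CPM in media. It fell with one (-0.62 ± 0.09, adjusted p = 0.00011) and rose with the other (0.42 ± 0.09, adjusted p = 0.0011). In adult cells with adult supernatant its change was -0.08 (95% confidence interval -0.27 to 0.11). Unc5b, a repellent netrin receptor also found on vessels, was lower in all 4 comparisons. In adult cells Unc5b had 193, 137 and 206 CPM with neonatal and 149, 157 and 144 CPM with adult supernatant, against 361, 268 and 369 CPM in media (-0.90 ± 0.15 and -1.13 ± 0.15). In neonatal cells Unc5b had 256, 251 and 208 CPM with neonatal and 253, 245 and 249 CPM with adult supernatant, against 295, 360 and 427 CPM in media. These calls (-0.59 and -0.52) were lost without media library 3 (-0.46 and -0.39), and the one with neonatal supernatant also without library 3 of its own group (-0.49, adjusted p = 0.051). Unc5c fell with adult supernatant (-0.95 ± 0.25 and -1.42 ± 0.25 in neonatal and adult cells). Genes called in none of the 4 comparisons were Epha10, Ntn4, Plxnb3, Sema3f, Sema4f, Sema6a, Slit1 and Unc5a.

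In media, before any T cell product, neonatal cells differed from adult cells in 26 of 63 guidance genes, 10 higher and 16 lower, where 28.6% of all genes were called (16.7% higher and 12% lower). Without the pair of media libraries of high interferon level, 18 were called. Called genes at least 2-fold apart numbered 3 higher and 7 lower in neonatal cells, and the share of all genes that far apart was not counted. Of these guidance genes, all but Plxnb3, Robo4 and Sema4f encode secreted ligands. Among them, the calls of Robo4, Sema3d and Slit1 were each lost without both media libraries of high interferon level (-1.99, -1.32 and -1.10) and without any 1 of 4 media libraries, at -1.87 to -2.09, -1.11 to -1.39 and -0.85 to -1.35. Slit3 had 216, 252 and 268 CPM in neonatal cells, against 597, 662 and 534 CPM in adult cells (-1.28 ± 0.09, adjusted p = 6.1e-08). Slit2 differed by -1.32 ± 0.11 (adjusted p = 3e-07), Sema3c by -1.30 ± 0.11 (adjusted p = 3.7e-07) and Ntn1, at 46.2, 51.2 and 49.9 CPM in neonatal cells and 112, 134 and 100 CPM in adult cells, by -1.22 ± 0.09 (adjusted p = 8.8e-08). Sema3a was the opposite, with 58.4, 89.2 and 80.5 CPM in neonatal cells, against 25.8, 25.4 and 26.7 CPM in adult cells (1.53 ± 0.20, adjusted p = 3.9e-05). Sema4f, a membrane semaphorin of neural tissue, had 7.53, 8.59 and 17.6 CPM in neonatal cells, against 2.26, 0.939 and 1.80 CPM in adult cells (2.74 ± 0.34, adjusted p = 1.9e-05). Plxnb3, a receptor of Sema5a, had 1.33, 1.70 and 3.70 CPM in neonatal cells, against 0.269, 0.255 and 0.267 CPM in adult cells (2.95 ± 0.48). The adult levels lay only a few reads above the lowest value of 0.127 CPM. Markers of Schwann cells and neural crest (6 measured) summed to 20.6 to 64.7 CPM in neonatal cells in media, against 9.46 to 13.7 CPM in adult cells in media, with Sox10 at a mean of 9.68 and 0.396 CPM. Their part in the Sema4f and Plxnb3 differences was not tested. Epha2 was also higher in neonatal cells (0.70 ± 0.08, adjusted p = 1.1e-05) and Ephb3 lower (-0.83 ± 0.09, adjusted p = 6.1e-06).

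**Figure D3:**
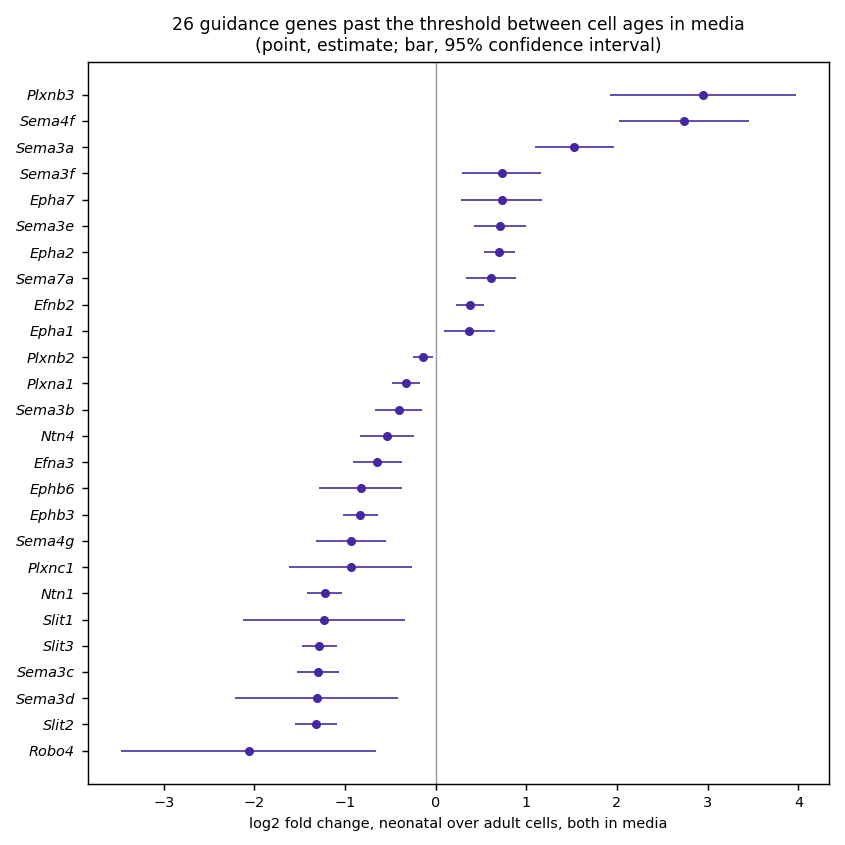
Log2 fold change (horizontal axis, with 95% confidence interval) of neonatal over adult cells in media for the 26 guidance genes at a limma adjusted p under 0.05. Robo4, Slit1, Slit2, Slit3, Ntn1, Sema3c and Sema3d lie at or below -1.22, and Sema3a, Sema4f and Plxnb3 lie at or above 1.53.

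The test of whether cells of the 2 ages responded differently passed for 14 of 63 genes with adult supernatant, where 4.55% of all genes were called (3% higher and 1.55% lower), and for 5 with neonatal supernatant, where 0.855% of all genes were called (0.493% higher and 0.361% lower). In the second of these tests, without library 2 of adult cells or library 1 or 2 of neonatal cells with neonatal supernatant, 3 genes passed in place of 5. The value tested is the change in neonatal cells minus that in adult cells. With adult supernatant 10 of the 14 were positive, and the median over all 63 genes was 0.36, against 0.06 over all genes. The strongest was Sema7a, at -2.49 ± 0.18 (adjusted p = 9.8e-07) with adult and -2.04 ± 0.18 (adjusted p = 5.8e-05) with neonatal supernatant. Sema3c differed by 1.23 ± 0.16 (adjusted p = 0.00028) and 1.08 ± 0.16 (adjusted p = 0.0042) with the same fluids. For Slit2 the difference with adult supernatant was 1.2 ± 0.16 (adjusted p = 0.0003). Nrp1 (0.65 ± 0.12, adjusted p = 0.0055), Ephb3 (0.66 ± 0.13, adjusted p = 0.007, and 0.59, adjusted p = 0.051, without both media libraries of high interferon level) and Ephb4 (0.63 ± 0.12, adjusted p = 0.0048) were receptors whose fall was smaller or absent in neonatal cells. Ephb4, the Efnb2 receptor of veins, had 56.7, 57.6 and 58.2 CPM with adult supernatant in neonatal cells, against 62.3, 56.2 and 65.8 CPM in media, and 40.6, 43.3 and 40.3 CPM in adult cells, against 65.8, 68.1 and 71.2 CPM in media. Nrp2 was negative (-0.69 ± 0.13, adjusted p = 0.0059).

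Epha1, an EphA receptor of epithelia, was also called (0.92 ± 0.19, adjusted p = 0.0096), with 19.3, 19.4 and 19.7 CPM with adult supernatant in neonatal cells, against 18.6, 16.8 and 15.0 CPM in media, and 6.59, 9.99 and 7.65 CPM in adult cells, against 13.9, 12.4 and 12.6 CPM in media. Exons of Zyx on the other strand cover 6.01% of its exon length, and the sources used here do not say whether reads were counted by strand, so part of its count is uncertain. With neonatal supernatant, Efna3 (1.15 ± 0.18, adjusted p = 0.0065) fell less in neonatal cells. The neonatal-supernatant calls of Slit2 (0.78, adjusted p = 0.03) and Epha2 (0.52, adjusted p = 0.044) depended on single libraries. The Slit2 call was lost without both media libraries of high interferon level (0.62), and without library 1 or 2 of neonatal cells with neonatal supernatant, library 1 or 2 of their media or library 2 of adult cells with neonatal supernatant (0.70 to 0.78). That of Epha2 was lost without any 1 of 8 libraries (0.46 to 0.52), and without the mean-variance trend neither passed. Large falls that did not pass this test include Sema3d with adult supernatant (1.30, 95% confidence interval 0.03 to 2.57, adjusted p = 0.27) and Epha3 (-0.14, -1.01 to 0.74).

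**Figure D4:**
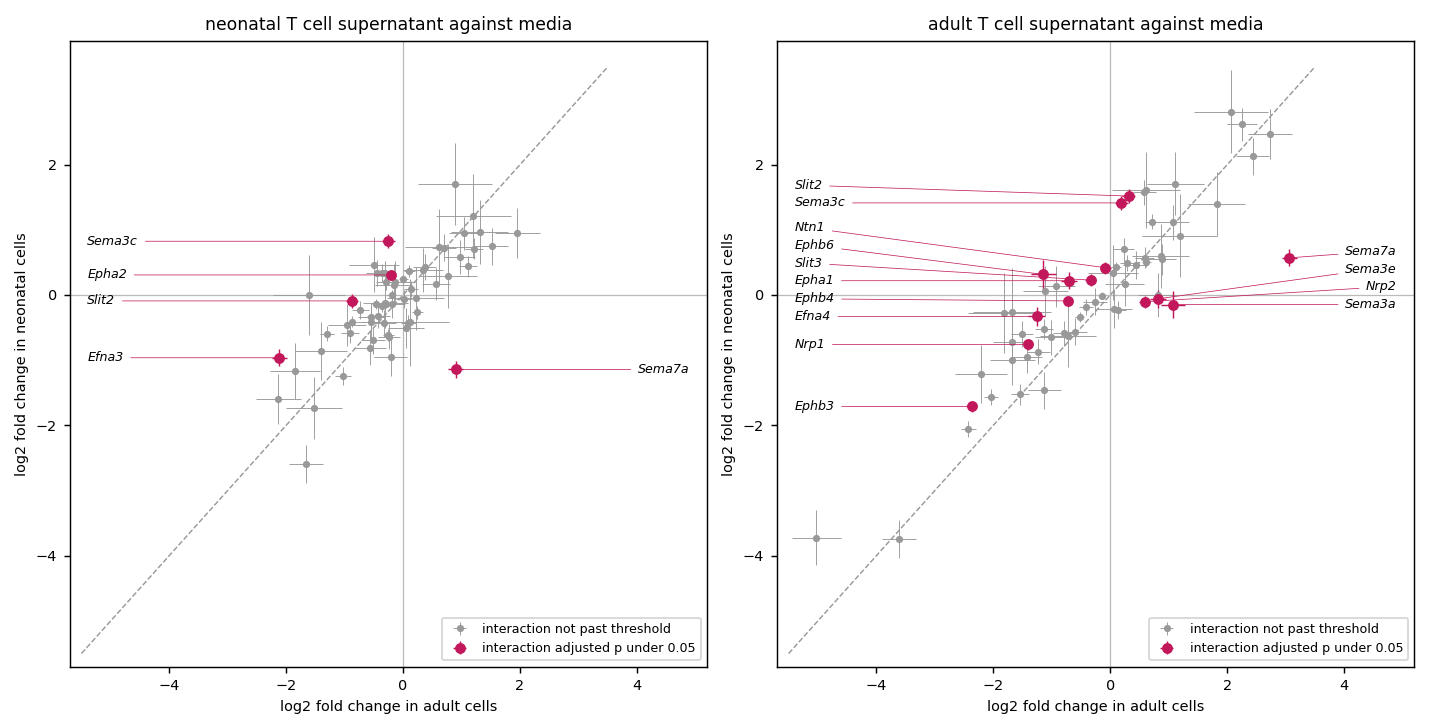
Log2 fold change against media in neonatal cells (vertical axis) and adult cells (horizontal axis) of the 63 genes, with neonatal supernatant on the left and adult supernatant on the right; bars are standard errors, the dashed line marks equal change, and named points passed the test of the difference between ages. Sema7a lies far below the line in both panels, and Sema3c and Slit2 lie above it.

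Set directly against adult supernatant, neonatal supernatant gave other levels for 24 of 63 genes in neonatal cells, 10 higher and 14 lower, where 32.4% of all genes were called (13.7% higher and 18.7% lower), and for 30 in adult cells, 17 higher and 13 lower, where 28.6% of all genes were called (15.1% higher and 13.5% lower). In both ages the higher ones included Plxna4 (1.96 ± 0.16 and 2.65 ± 0.16 in neonatal and adult cells), Ephb3 (1.30 ± 0.09 and 1.49 ± 0.09), Nrp1 (0.59 ± 0.09 and 1.05 ± 0.09) and Sema3d (2.56 ± 0.42 and 3.17 ± 0.42). The lower ones included Sema7a (-1.71 ± 0.13 and -2.16 ± 0.13), Slit2 (-1.61 ± 0.11 and -1.19 ± 0.11), Sema3e (-1.19 ± 0.13 and -1.85 ± 0.13) and Sema6b (-1.67 ± 0.25 and -1.21 ± 0.25). Of 12 membrane semaphorins, 3 (25%) were lower and none higher at each age, where 18.7% and 13.5% of all genes were lower in neonatal and adult cells. In neonatal cells Sema5a, Sema6b and Sema7a passed under every setting run. In adult cells Sema6b and Sema7a did, while the call of Sema4g was lost under some settings. Efna3 was higher with neonatal supernatant in neonatal cells (1.10 ± 0.13, adjusted p = 5.7e-06) but is not among the genes called in adult cells, where both supernatants had lowered it to a like level.

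Beyond the ligands and receptors, 3 further lists of pathway genes were counted. Of 24 co-receptors and other ligands, 11 rose and 4 fell with adult supernatant in cells of either age, with medians of 0.45 and 0.30 in neonatal and adult cells, against 0.07 and 0.03 over all genes. With neonatal supernatant 7 rose and 3 fell in neonatal cells, and 12 rose and 6 fell in adult cells. The shares called were 62.5% at each age with adult supernatant, and 41.7% and 75% in neonatal and adult cells with neonatal supernatant, against 47.8%, 52%, 18.3% and 27.3% of all genes in the same order of comparisons. The smallest p values in adult cells with adult supernatant belonged to Flt4, the VEGF-C receptor that pairs with Nrp2 (2.19 ± 0.14), the planar polarity kinase homologue Ptk7 (-1.05 ± 0.09), the membrane-anchored netrin Ntng2 (1.10 ± 0.12) and Vegfa, a ligand of Nrp1 (1.14 ± 0.13). Among 47 measured intracellular effectors, 16 rose and 13 fell in neonatal cells and 15 rose and 16 fell in adult cells with adult supernatant, and 6 rose in each with neonatal supernatant, where 4 and 8 fell. The shares called, 61.7% and 66% with adult and 21.3% and 29.8% with neonatal supernatant in neonatal and adult cells, are close to those of all genes with neonatal supernatant and above them with adult supernatant. Mical1, the oxidase that plexins use to take actin filaments apart, averaged 11.7 CPM with adult supernatant in adult cells, against 50.9 CPM in media (-2.14 ± 0.15). Enah, an actin filament elongation factor, rose (1.13 ± 0.08), while Plcg1 fell (-0.67 ± 0.07). Of 7 proteases that cut guidance proteins, 3 rose and 2 fell in neonatal cells and 3 rose and 3 fell in adult cells with adult supernatant. With neonatal supernatant 1 rose and 2 fell in neonatal cells and 3 rose and 2 fell in adult cells. In this short list 71.4% and 85.7% were called with adult supernatant in neonatal and adult cells, against 47.8% and 52% of all genes, and 42.9% and 71.4% with neonatal supernatant, against 18.3% and 27.3%. Furin, which cleaves class 3 semaphorins, and the related proprotein convertase Pcsk5 rose (0.61 ± 0.07 and 1.75 ± 0.35), and the convertase Pcsk6 and the membrane protease Mmp14 fell (-3.60 ± 0.19 and -1.36 ± 0.07), all in adult cells with adult supernatant.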

How the data were processed

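RNA of 18 libraries was sequenced as paired ends after poly(A) selection, per the labels' protocols. Kallisto, GRCm39 and limma 3.56.2 are named in the submitters' processing notes, while the sources used here give neither the kallisto version nor the handling of strand. The authors deposited log2 CPM values for 14391 genes, which are normalized levels and not counts. Low values lay on whole reads too seldom (7.7% to 15.7% within 0.02 reads) for counts to be recovered, so no count test was run, and the lowest value is 0.127 CPM. A linear model was fitted to the deposited log2 values of all 6 groups with limma 3.58.1 in R 4.3.3 (empirical Bayes with a mean-variance trend, 12 residual and 4.6 prior degrees of freedom), with Benjamini-Hochberg adjustment over all genes and a threshold of 0.05. CPM values are the deposited values with the log undone. Python 3.11.15, pandas 2.3.3, numpy 2.4.6 and matplotlib 3.10.9 served for the rest. The fit was tested on simulated data.

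The genes, marker lists, pathway lists and tests were chosen with earlier results of these data known, and the interferon list, the grouping by level and the receptor sum after values were seen. Named with values were, per supernatant comparison, called genes at or above 5 CPM in a compared group with a log2 change of at least 1 in size (the first 8 per direction), the first 8 called by adjusted p in the comparisons of age, and a fixed set of 19; other names were chosen after their values were seen. Pathway genes were up to 4 per list by p. Alternatives were TMM scaling, quantile normalization, a pseudocount of 1 CPM, a filter of 5 CPM in 3 libraries, no trend, only the compared groups, the replicate number as a block, and libraries left out.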

Additional observations from a re-analysis of the deposited data

Results flagged for a closer look

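The listed genes passed the limma test of a difference in response between neonatal and adult cells, given as the change in neonatal cells minus that in adult cells on the log2 scale, at a Benjamini-Hochberg adjusted p under 0.05 over all genes. With adult supernatant the positive differences were 1.23 for Sema3c, 1.2 for Slit2, 0.63 for Ephb4, 0.65 for Nrp1, 0.66 for Ephb3, 0.92 for Epha1, 1.46 for Ephb6, 0.93 for Efna4, 0.56 for Slit3 and 0.50 for Ntn1. The negative ones were -2.49 for Sema7a, -0.69 for Nrp2, -0.87 for Sema3e and -1.22 for Sema3a. With neonatal supernatant they were -2.04 for Sema7a, 1.08 for Sema3c, 1.15 for Efna3, 0.78 for Slit2 and 0.52 for Epha2. The adult-supernatant call of Sema3a was lost without any 1 of 5 libraries (-1.04 to -1.20), and that of Slit3 without both media libraries of high interferon level (0.40) or any 1 of 4 libraries (0.47 to 0.53). That of Ntn1 was lost without both (0.34) or any 1 of 9 libraries (0.39 to 0.53), and that of Efna4 without both (0.91). Both supernatant tests use the same media libraries.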

How the results depend on the processing

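No called change of a guidance gene reversed: of 1752 pairs of a called result and an alternative, 1640 kept the call and 112 lost it, and of 1482 pairs of a called result and a left-out library, 1247 kept it and 235 lost it. Of 228 called results, 155 passed under every setting run. Calls lost numbered 7 with TMM scaling, 14 with quantile normalization, 2 with the pseudocount, 17 without the trend, 33 with only the compared groups in the fit, 0 of 210 with the filter, and 31 of 174 without both media libraries of high interferon level; the cause was not tested. Leaving out 1 library at a time gave 31 to 35 called genes in neonatal cells and 41 to 44 in adult cells with adult supernatant, and 14 to 20 and 21 to 27 with neonatal supernatant. For neonatal against adult supernatant the ranges were 19 to 23 in neonatal and 23 to 29 in adult cells, and for neonatal against adult cells in media 20 to 25. The tests of different response by age gave 11 to 15 genes with adult and 3 to 6 with neonatal supernatant, which also gave 3 without the trend and 3 with only the compared groups. No pairing by replicate number was detected. Deviations from group means correlated at -0.16 to 0.22 (median -0.01) over 45 pairs of the same number. Over 90 pairs of other numbers they correlated at -0.24 to 0.11 (median 0). With 3 libraries per group this cannot exclude a shared animal or batch. With the replicate number as a block, 38 and 46 genes were called with adult and 21 and 25 with neonatal supernatant in neonatal and adult cells, 23 and 28 between supernatants, 24 between ages in media, and 15 and 5 in the tests of different response, and 8 of 228 calls were lost. Depth limits the genes within a few reads of the lowest value, such as Plxnb3 in adult cells.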
